A study of Bos taurus with 6 samples.

Results

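The compaction and tight junction genes are a chosen set with known roles in adhesion or sealing between cells: CDH1, CTNNA1, CTNNB1, TJP1, OCLN, F11R, CLDN3, CLDN4 and CLDN6. Members were taken by gene symbol, and 8 of the 9 have a row in every library. No row carries the symbol TJP1, the scaffold protein ZO-1, so it was not analysed here. The 8 genes are set among 13185 symbols, and all 8 are among the 7319 symbols tested, which reached 1 FPKM in 3 or more libraries.

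The morulae were produced by in vitro fertilization, 3 MAT2A-inhibited and 3 Control. MAT2A-inhibited embryos were held in 20 µM FIDAS-5, an inhibitor of the enzyme that makes S-adenosylmethionine, from 72 to 144 h after insemination (day 3, at 8 to 16 cells, to day 6). Control embryos were in 0.1% DMSO, the solvent of FIDAS-5, and whether the other group also had DMSO is not stated. Both groups were kept in mSOF with serum albumin at 5% oxygen, and each library came from 1 whole embryo by a low-input full-length polyA kit. Levels are FPKM, which is per length and so comparable between genes. A positive log2 fold change means a higher level in MAT2A-inhibited embryos. It is computed from log2(FPKM + 1), so differences of genes near 0 come out too small. Separate cultures are not stated in the labels, and the p-values cover the spread between these embryos, which may be technical.

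At compaction the loose blastomeres of the early embryo flatten against each other. E-cadherin, the product of CDH1, binds E-cadherin of the next cell, and its tail holds beta-catenin (CTNNB1), which in turn holds alpha-catenin (CTNNA1) and through it the actin cytoskeleton. Tight junctions are then built near the outer surface from the adhesion molecule JAM-A (F11R), occludin (OCLN) and claudins, and in mouse embryos this seal is needed for the blastocyst cavity to fill.

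Depth was 46400000 to 57700000 fragments a library in MAT2A-inhibited morulae and 53400000 to 59900000 in Control morulae. Of 12 morula markers 11 have a row, and 10 of these, all but CDX2, were above 1 FPKM in every embryo. POU5F1, the pluripotency factor, was at 254.8 to 376.4 FPKM in MAT2A-inhibited and 312.3 to 431.0 FPKM in the Controls. NANOG (1.165 to 1.883 against 2.54 to 20.32 FPKM) and DPPA3 (453.5 to 574.5 against 660.9 to 881.3 FPKM) were lower without overlap, beside 5.18% of tested genes. SOX2 (45.19 to 50.77 against 27.56 to 41.53 FPKM) was higher without overlap, beside 8.27%. The other markers overlapped, and none of the markers passed limma after adjustment. Y-linked transcripts were present in MAT2A-inhibited morulae 2 and 3 (58.2 and 119.1 FPKM summed over 6 genes) and at most 0.193 FPKM in the other 4 libraries. Cumulus and stroma markers apart from SERPINE2, 16 genes, summed to 4.22 to 5.63 FPKM in MAT2A-inhibited and 8.44 to 19.1 FPKM in the Controls, with COL3A1 and PTX3 listed at 0 in all 6. The 19.1 FPKM was that of Control 2.

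CDH1 lies on chromosome 18 of bosTau8, from 36221443 to 36245446. Embryos MAT2A-inhibited 1, 2 and 3 had 0, 139.1 and 323.4 FPKM, against 60.2, 49.1 and 164.1 FPKM in Control 1, 2 and 3, the order used for every gene. The groups overlapped, and MAT2A-inhibited 1 held both the lowest value and the single 0 among the 48 values of the 8 genes. The bounds that the authors deposited around that 0 run from 0 to 0.0279 FPKM.

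The row named CDH1 did not cover the same stretch in every library. In MAT2A-inhibited 1, a second row with no gene symbol lay over the end of the locus, from 36242013 to 36245446, at 193.7 FPKM. Control 1 had such a row from 36243310 to 36245432 at 161.6 FPKM, and Control 2 had one from 36235935 to 36245436 at 199.5 FPKM. The other 3 libraries, MAT2A-inhibited 2 and 3 and Control 3, had no such row of at least 1000 bases, and they held the 3 highest values of the named row. The map of rows over the CDH1 locus shows this layout. The 3 lowest CDH1 values thus came from the 3 libraries in which part of the locus was reported under another identifier. Reads were not used here, so the parts could not be joined.

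**Figure D1:**
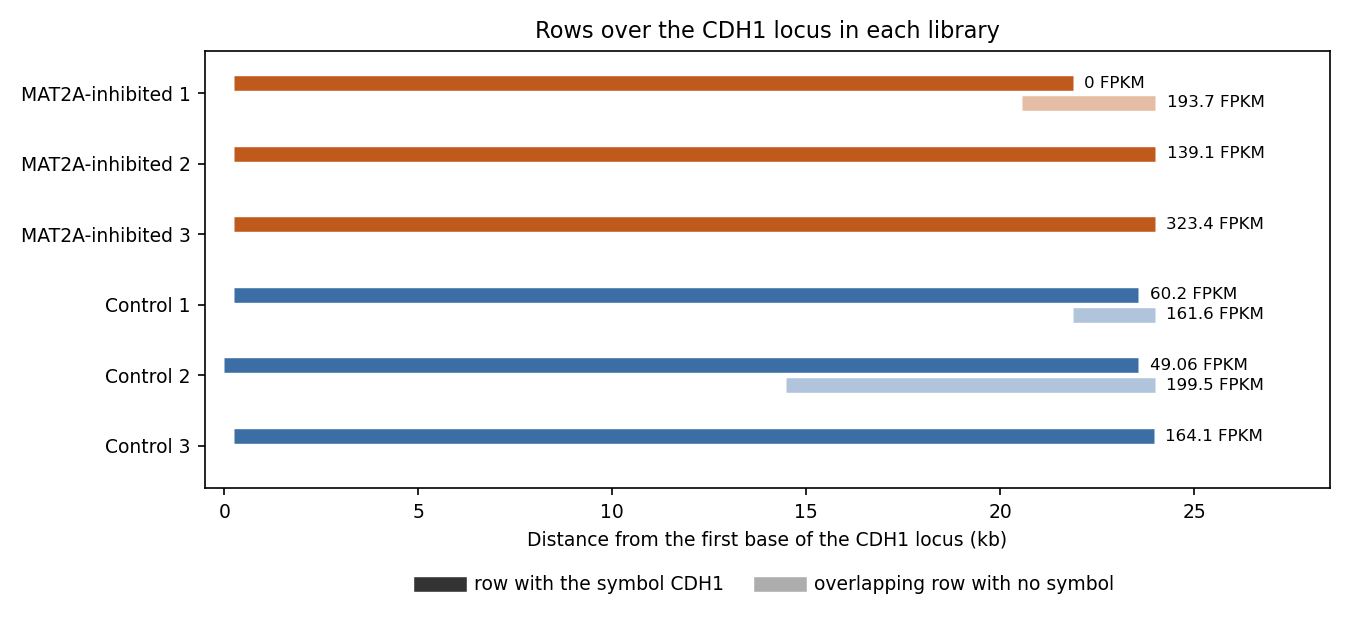
Rows of each library over the CDH1 locus, drawn to scale as distance in kb from its first base, with the FPKM of each row beside it. MAT2A-inhibited 1, Control 1 and Control 2 carry a second row with no gene symbol at 193.7, 161.6 and 199.5 FPKM, and their rows named CDH1 are at 0, 60.2 and 49.1 FPKM.

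Taking the highest row over the locus in each library, a choice made after the values were seen, gave 193.7, 139.1 and 323.4 FPKM in MAT2A-inhibited and 161.6, 199.5 and 164.1 FPKM in the Controls. On that reading CDH1 was at 218.7 ± 94.7 against 175.1 ± 21.2 FPKM (SD, n = 3 each, exact permutation p = 0.7, two-sided). For the named row the log2 fold change was -1.16 ± 1.94 (SE, limma adjusted p = 0.896). It was 0.24 ± 0.31 with the highest row and 1.42 ± 0.59 with the 0 taken as missing, so CDH1 has no settled direction. None of the other 7 genes had an overlapping unnamed row of that length at or above its own level.

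Both catenins that join E-cadherin to actin were above 40 FPKM in every embryo, with CTNNB1 above CTNNA1 in each. CTNNA1 (chromosome 7, 51688092 to 51880523) was at 73.4, 72.5 and 73.8 FPKM in the MAT2A-inhibited embryos, against 49.3, 40.1 and 75.0 FPKM in the Controls. The 3 MAT2A-inhibited embryos lay within 2 FPKM of each other, while Control 3 stood above them and Controls 1 and 2 below. The means were 73.2 ± 0.669 and 54.8 ± 18.1 FPKM (SD, n = 3 each). The difference was 0.46 ± 0.26 on the log2 scale (SE, limma adjusted p = 0.78).

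CTNNB1 (chromosome 22, 13842691 to 13891443), which is also the effector of WNT signalling, was at 97.6, 93.7 and 82.9 FPKM in the MAT2A-inhibited embryos, against 117.0, 53.8 and 136.6 FPKM in the Controls. All 3 MAT2A-inhibited values lay inside the range of the Control embryos. Between groups the log2 fold change was -0.06 ± 0.35 (SE, limma adjusted p = 0.97, exact permutation p = 1.0). Its sign turned without MAT2A-inhibited 3, Control 1 or Control 3.

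Of the 5 tight junction genes with a row, F11R, OCLN and CLDN3 did not overlap between groups, while CLDN4 and CLDN6 did. F11R (chromosome 3, 8483554 to 8508125), the adhesion molecule that marks the junction as it forms, was at 125.1, 136.3 and 139.3 FPKM in the MAT2A-inhibited embryos, against 104.9, 68.8 and 113.3 FPKM in the Controls. Every MAT2A-inhibited embryo lay above every Control embryo. The means were 133.6 ± 7.47 and 95.7 ± 23.6 FPKM (SD, n = 3 each). The log2 fold change was 0.51 ± 0.24 (SE, limma adjusted p = 0.75, exact permutation p = 0.1), and 0.1 is the smallest p that 3 embryos against 3 can give.

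OCLN (chromosome 20, 10154087 to 10201194), a membrane protein of the tight junction strand, was at 82.2, 95.4 and 67.5 FPKM in the MAT2A-inhibited embryos, against 61.2, 29.1 and 66.7 FPKM in the Controls. The groups did not overlap, although MAT2A-inhibited 3 and Control 3 were less than 1 FPKM apart. The means were 81.7 ± 13.98 and 52.3 ± 20.3 FPKM (SD, n = 3 each). On the log2 scale the difference was 0.71 ± 0.34 (SE, limma adjusted p = 0.75, exact permutation p = 0.1).

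Claudins form the strands that decide which ions pass between cells. CLDN3, CLDN4 and CLDN6 all lie on chromosome 25, with CLDN4 (33988115 to 33989662) and CLDN3 (34018456 to 34019670) 28.8 kb apart and no annotated symbol between them. How reads that match more than 1 claudin were assigned is not given in the sources used here.

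CLDN3 was at 3.06, 2.06 and 3.21 FPKM in the MAT2A-inhibited embryos, against 0.305, 0.866 and 1.599 FPKM in the Controls. Every MAT2A-inhibited value was above every Control value, all at a low level. The gene met the filter of 1 FPKM in 3 libraries only through the MAT2A-inhibited embryos. The means were 2.77 ± 0.625 and 0.923 ± 0.649 FPKM (SD, n = 3 each), a ratio of 3.01. The log2 fold change was 1.01 ± 0.36 (SE), with an unadjusted limma p of 0.0241 and an adjusted p of 0.725 (exact permutation p = 0.1).

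CLDN4 was at 14.3, 24.8 and 22.9 FPKM in the MAT2A-inhibited embryos, against 13.9, 6.68 and 20.0 FPKM in the Controls. MAT2A-inhibited 1 lay between Controls 1 and 3, so the groups overlapped. Its log2 fold change was 0.66 ± 0.42 (SE, limma adjusted p = 0.792).

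CLDN6 (chromosome 25, 2435179 to 2438490), a claudin typical of embryonic epithelia, was the most abundant of the 8 genes in every embryo. It was at 477.3, 376.4 and 455.8 FPKM in the MAT2A-inhibited embryos, against 369.0, 257.9 and 470.0 FPKM in the Controls. The groups overlapped, with Control 3 above MAT2A-inhibited 2 and 3. CLDN6 had a log2 fold change of 0.29 ± 0.25 (SE, limma adjusted p = 0.818). Its locus shares 473 bases with TNFRSF12A, which was at 24.4 to 25.96 FPKM in MAT2A-inhibited and 26.4 to 26.9 FPKM in the Controls, and the files give no strand.

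**Figure D2:**
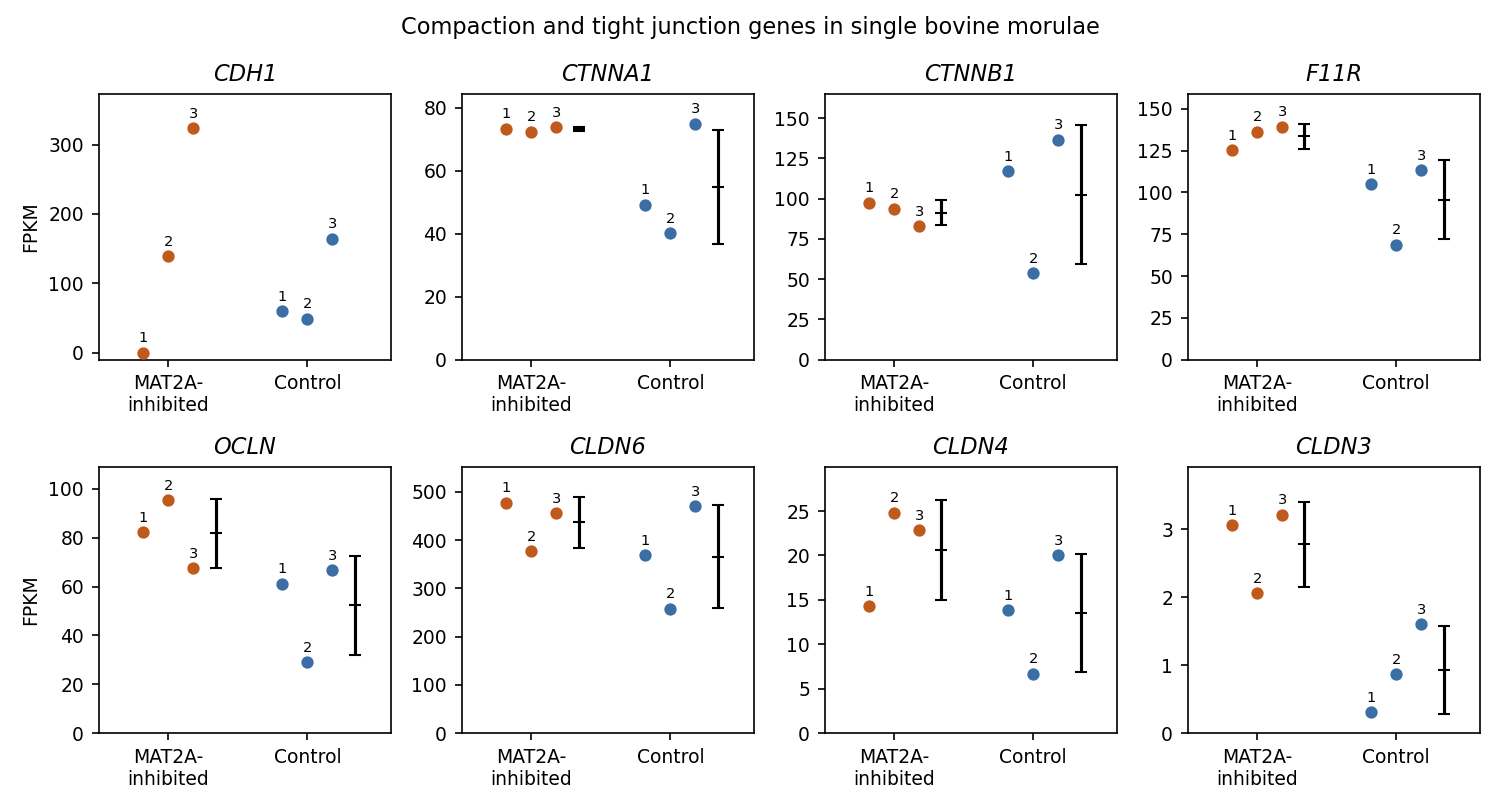
FPKM of the 8 genes in each embryo (numbered points), MAT2A-inhibited left and Control right, with mean and SD (n = 3) as bars; CDH1 has no bar because 1 value is an exact 0. F11R, OCLN and CLDN3 do not overlap between groups, and Control 2 is the lowest Control in all panels but CLDN3.

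Over the 8 genes, limma called 0 at an adjusted p below 0.05. Of all tested genes 0.0410% passed, 0.0273% higher and 0.0137% lower in MAT2A-inhibited embryos. Before adjustment, 1 of the 8, CLDN3, was below 0.05, beside 6.64% of tested genes. CLDN3 was tested only because it reached 1 FPKM in the MAT2A-inhibited embryos, the group in which it is high. Neither its p nor its lack of overlap is therefore support for a difference. F11R, OCLN and CLDN3 had groups without overlap, 3 of 8 higher and 0 lower in MAT2A-inhibited embryos, beside 8.27% higher and 5.18% lower among tested genes. By the named rows, 6 of the 8 genes, or 75.0%, had a log2 fold change above 0, beside 54.2% of tested genes. The median log2 fold change was 0.48 for the 8 genes and 0.04 for all tested genes. These genes were chosen with earlier results of these data known, so the counts describe them and are no test.

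Most of these differences depended on Control 2. Without it the log2 fold changes were 0.26 for CTNNA1, 0.29 for F11R, 0.34 for OCLN, 0.25 for CLDN4 and 0.06 for CLDN6, while CLDN3 stayed at 1.02. CTNNB1 was then at -0.47, and the median of the 8 genes was 0.26. Leaving out Control 3 raised the median to 0.68, with log2 fold changes of 0.71 for CTNNA1, 0.92 for OCLN, 0.98 for CLDN4 and 1.26 for CLDN3. Then 4 of the 8 genes had an unadjusted limma p below 0.05, beside 605 of all 7319 tested genes. In neither case did any of the 8 pass after adjustment. With MAT2A-inhibited 2 and 3, the libraries with Y-linked transcripts, left out, the remaining embryo gave 0.42 for F11R, 0.73 for OCLN, 1.13 for CLDN3 and 0.19 for CLDN4. That fit assumes that 1 embryo varies as the Controls do.

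**Figure D3:**
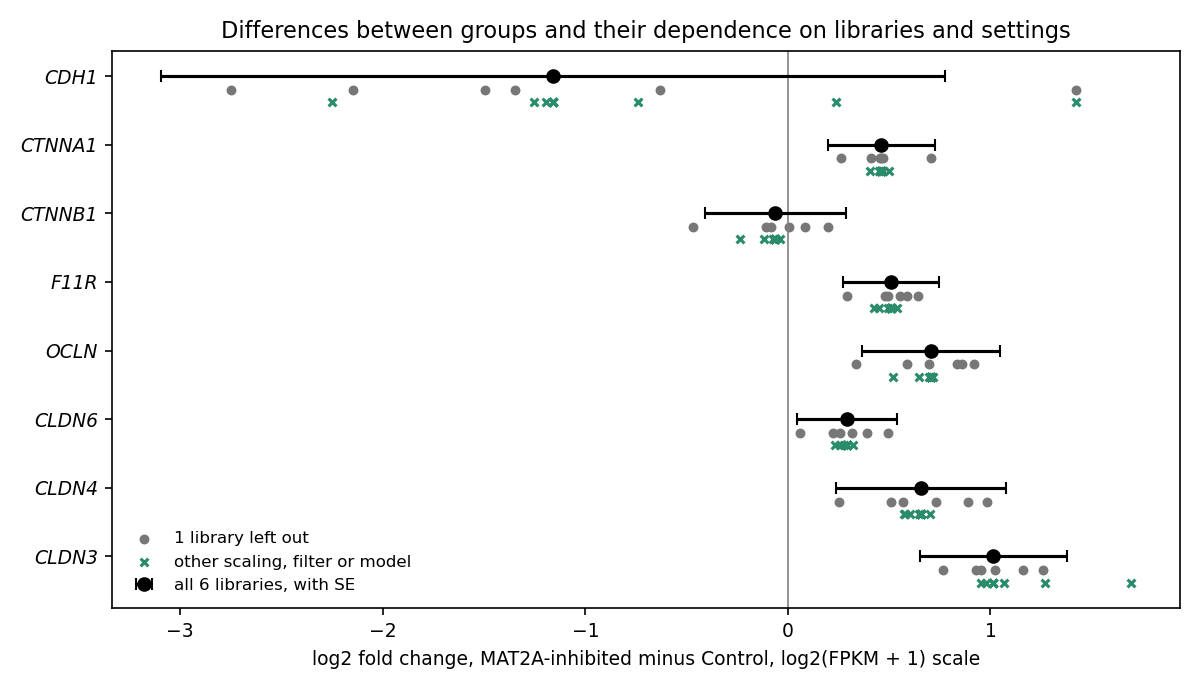
Log2 fold change (x axis, MAT2A-inhibited minus Control) of each gene over all 6 libraries with its SE (black), with 1 library left out (grey) and under other scalings, filters or models (green crosses). F11R, OCLN, CLDN3, CLDN4, CLDN6 and CTNNA1 stay above 0 at every point shown, CTNNB1 crosses 0, and CDH1 runs from below -2 to 1.42.

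The Control embryos differed among themselves in a shared order. Control 2 was the lowest Control for 7 of the 8 genes, where it was the lowest Control for 40.2% of tested genes. Control 3 was the highest Control for all 8, against 37.8% of tested genes. The exception for Control 2 was CLDN3, lowest in Control 1. With the highest CDH1 row these counts were 6 and 7 of the 8, since that row was highest in Control 2. Over the 7 genes other than CDH1 the mean log2(FPKM + 1) was 5.87, 5.90 and 5.90 in MAT2A-inhibited morulae 1 to 3 and 5.43, 4.86 and 5.85 in Control morulae 1 to 3. Control 3 thus lay close to the MAT2A-inhibited embryos, and Control 2 farthest below them.

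Keratin genes of the outer epithelium followed a like order among the Controls. KRT18 was at 28.48, 90.4 and 117.0 FPKM in the MAT2A-inhibited embryos, against 22.6, 8.67 and 363.4 FPKM in the Controls. KRT8, with rows at more than 1 locus summed, was at 38.7, 109.5 and 229.9 FPKM against 81.4, 4.49 and 400.5 FPKM. In MAT2A-inhibited embryos the keratins ranged over several fold while CTNNA1 and F11R stayed within a narrow band. Control 2 also held the most DCN, a stromal proteoglycan, which was at 0.443, 0 and 0 FPKM in the MAT2A-inhibited embryos, against 0.730, 11 and 0 FPKM in the Controls. The cumulus and stroma markers were mixed in this respect. Of the 13 above 0 in any Control, DCN and SERPINE2 among them, Control 2 was the highest Control for 5 and the lowest for 4. LUM, also highest in Control 2, was at 0, 0.013 and 0.088 FPKM in the MAT2A-inhibited embryos, against 0.74, 4.81 and 0.021 FPKM in the Controls. COL1A2, a collagen, was lowest in Control 2. It was at 1.06, 0.630 and 0.529 FPKM in the MAT2A-inhibited embryos, against 4.29, 0.231 and 4.06 FPKM in the Controls. SERPINE2 was at 80.2, 60.3 and 40.96 FPKM in the MAT2A-inhibited embryos, against 121.8, 92.9 and 53.9 FPKM in the Controls. The part of such cells in the junction values was not tested. In whole embryos, fewer outer cells and less RNA per outer cell cannot be told apart.

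For these genes apart from CDH1, the MAT2A-inhibited embryos were more alike than the Controls. The SD of log2(FPKM + 1) was smaller in MAT2A-inhibited than in Control morulae for 7 of the 8 genes and for 54.3% of tested genes. CDH1 was the exception by the named row, and also by the highest row over its locus (SD 94.7 against 21.2 FPKM). The log2 SD was 0.013 against 0.452 for CTNNA1, 0.0813 against 0.382 for F11R and 0.121 against 0.712 for CTNNB1. The pooled SD within groups had a median of 0.44 over the 8 genes and 0.399 over all tested genes. No test of the spread was made with 3 embryos a group.

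In order of mean level over the 6 embryos, CLDN6 (401.1 FPKM) stood first, among the top 3.19% of all symbols. CDH1 (122.6 FPKM) and F11R (114.6) followed, and F11R was the lower of this pair in 3 of 6 embryos by the named CDH1 row. With the highest row over the locus, CDH1 averaged 196.9 FPKM and was above F11R in 6 of 6. In MAT2A-inhibited 1, Control 1 and Control 2 that row spans only part of the locus (3434, 2123 and 9502 bases). Its level there is not that of the whole gene. Next came CTNNB1 (96.9 FPKM), below F11R in 4 of 6 embryos, then OCLN (67.0) and CTNNA1 (64.0), whose order held in 3 of 6. CLDN4 (17.1 FPKM) lay below CTNNA1, and CLDN3 (1.85 FPKM) below CLDN4, in 6 of 6 embryos. The steps from CLDN6 to CDH1, from CTNNA1 to CLDN4 and from CLDN4 to CLDN3 were thus seen in every embryo. That from CDH1 to F11R was seen in 6 of 6 only with the highest CDH1 row, which mixes whole and partial rows.

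Among claudins, 2 genes took most of the signal. Of 15 claudin symbols with a row, 4 were above 1 FPKM in every embryo, 8 stayed below 1 FPKM in every embryo, and 3 of these were listed at 0 throughout. CLDN6 made up 80.4%, 46.6% and 48.9% of the summed claudin FPKM in the MAT2A-inhibited embryos, against 64.4%, 54.1% and 50.8% in the Controls. Most of the rest was CLDN10, which forms ion channels between cells, at 14.6%, 48.4% and 46.9% against 31.7%, 42.5% and 44.6%.

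MAT2A-inhibited 1 stood apart in this makeup, with CLDN10 at 86.7 FPKM, where the other embryos were at 182.0 to 437.2 FPKM. The share of CLDN6 was 58.7 ± 18.9% in MAT2A-inhibited and 56.4 ± 7.08% in Control morulae (SD, n = 3 each, exact permutation p = 1.0). That difference of 2.23 percentage points became -8.65 without MAT2A-inhibited 1. CLDN4 held 2.64 ± 0.374% against 2.0 ± 0.531% (exact permutation p = 0.2). CLDN3 held 0.372 ± 0.132% against 0.136 ± 0.0717%, higher in every MAT2A-inhibited embryo (exact permutation p = 0.1, the smallest possible). This share is computed from the same low CLDN3 values, which met the filter only through the MAT2A-inhibited embryos. Neither the share nor its p is therefore further support for a difference.

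**Figure D4:**
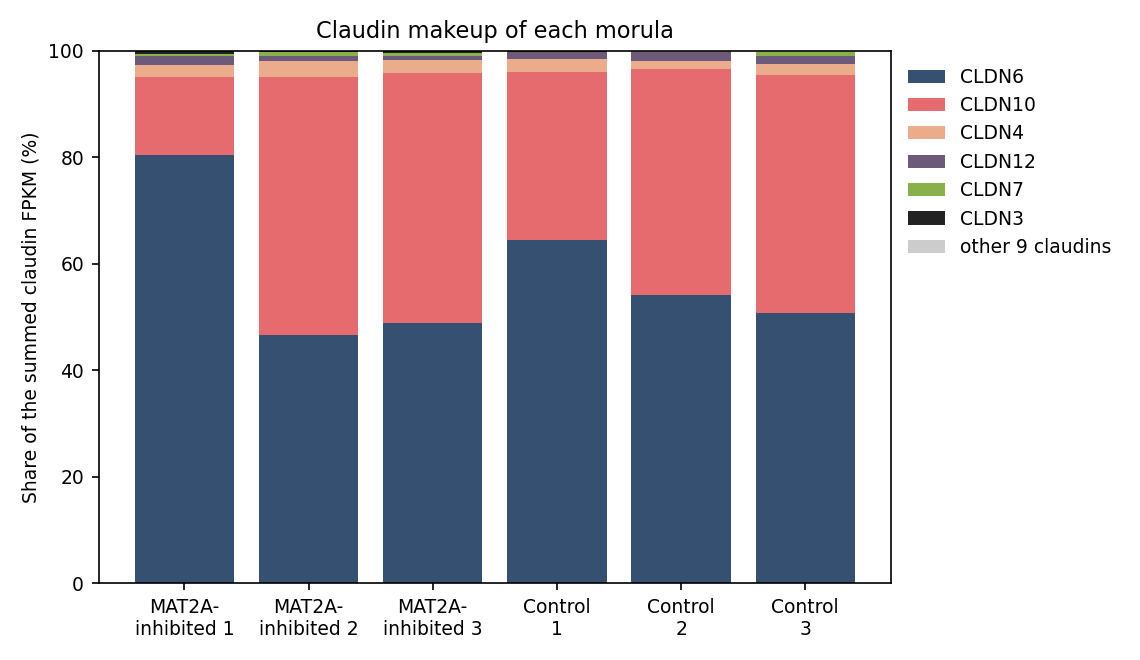
Share (%) of the summed FPKM of 15 claudins in each embryo, MAT2A-inhibited left and Control right. CLDN6 and CLDN10 together fill nearly all of every bar, and MAT2A-inhibited 1 has the largest CLDN6 share, 80.4%, and the smallest CLDN10 share, 14.6%.

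Other genes of cell junctions were taken from 6 lists by known role. Of 159 symbols 112 have a row in every library and 65 were tested. Limma called 0 of the 65 in either direction, beside 0.0410% of all tested genes. Before adjustment 3 of the 65 had a p below 0.05, beside 6.64% of all tested genes. For 6 of them, or 9.23%, the groups lay apart, beside 13.4% of all tested genes. Their median log2 fold change was 0.07, with 38 of 65, or 58.5%, above 0, beside 54.2% of all tested genes.

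Of the other adherens junction genes 9 of 12 had a log2 fold change above 0, with a median of 0.34. EPCAM, an adhesion molecule of epithelia, was at 113.4, 162.6 and 153.6 FPKM in the MAT2A-inhibited embryos, against 99.1, 62.3 and 203.8 FPKM in the Controls. Control 2 was again lowest and Control 3 highest. CTNND1, or p120-catenin, which keeps E-cadherin at the membrane, was at 13.4 ± 0.288 against 11.6 ± 3.57 FPKM (SD, n = 3 each). Vinculin (VCL), recruited to alpha-catenin under tension, was at 30.5 ± 17.0 against 19.9 ± 2.01 FPKM, and plakoglobin (JUP) at 9.19 ± 2.66 against 8.36 ± 6.51 FPKM. The nectin PVRL2 was at 6.40 ± 1.75 against 4.48 ± 3.86 FPKM. Other classical cadherins were low: CDH3 at 1.66 ± 1.02 against 0.806 ± 0.638 FPKM, and CDH2 at most 1.08 FPKM. Unnamed rows at or above the named one also lay over PVRL2 in Control 2 (1.47 FPKM, named row 0.272) and over CDH2 in MAT2A-inhibited 1 (0.664 FPKM, named row 0.388).

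The other tight junction genes had a median log2 fold change of 0.14, with 6 of 11 above 0. Cingulin (CGN), which ties the junction to myosin, was at 6.81 ± 4.84 FPKM in the MAT2A-inhibited embryos, against 4.56 ± 1.07 FPKM in the Controls (SD, n = 3 each). The adhesion receptor CXADR was at 12.4 ± 3.05 against 11.2 ± 3.26 FPKM. CLDN7 was at 2.51, 5.03 and 4.595 FPKM in the MAT2A-inhibited embryos, against 0.950, 0.0769 and 6.13 FPKM in the Controls, a further gene lowest in Control 2 and highest in Control 3. CLDN12 was at 8.21 ± 0.906 against 9.61 ± 3.42 FPKM and JAM3 at 3.05 ± 0.578 against 4.005 ± 0.838 FPKM. JAM2 was at most 1.48 FPKM, and in Control 3, where its row is at 0, an unnamed row over it was at 1.05 FPKM.

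Polarity genes, which set the outer against the inner face of a cell, had a median log2 fold change of -0.03, with 9 of 21 above 0. PRKCI, the atypical protein kinase C of the outer face, was at 62.9 ± 13.98 FPKM in MAT2A-inhibited and 52.8 ± 26.6 FPKM in the Controls (SD, n = 3 each). Its partners PARD6B and CDC42 were at 11.6 ± 2.196 against 14.3 ± 2.54 FPKM and at 265.1 ± 65.3 against 289.5 ± 45.0 FPKM. EZR, or ezrin, which links the outer membrane to actin, was at 82.2, 59.98 and 133.0 FPKM against 129.6, 34.4 and 314.0 FPKM. MPP5 was listed at 0, 12.2 and 10.96 FPKM against 0, 0 and 13.6 FPKM.

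Hippo pathway genes, which read cell contact, had a median of 0.17 with 6 of 10 above 0, and the row named AMOT stayed at or below 0.443 FPKM. Unnamed rows over AMOT were at 0.674 FPKM in MAT2A-inhibited 1 and 0.348 FPKM in Control 3, above its named row in both. Desmosome genes had a median of 0.01 with 4 of 7 above 0. The desmosomal cadherin DSG2 was at 38.1 ± 9.13 against 38.5 ± 20.0 FPKM (SD, n = 3 each), while DSC2 and DSP stayed at or below 1.32 FPKM. All 4 tested gap junction genes were above 0, with a median of 0.89. GJA1 and GJC1, which encode connexins, were at most 1.73 FPKM.

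**Figure D5:**
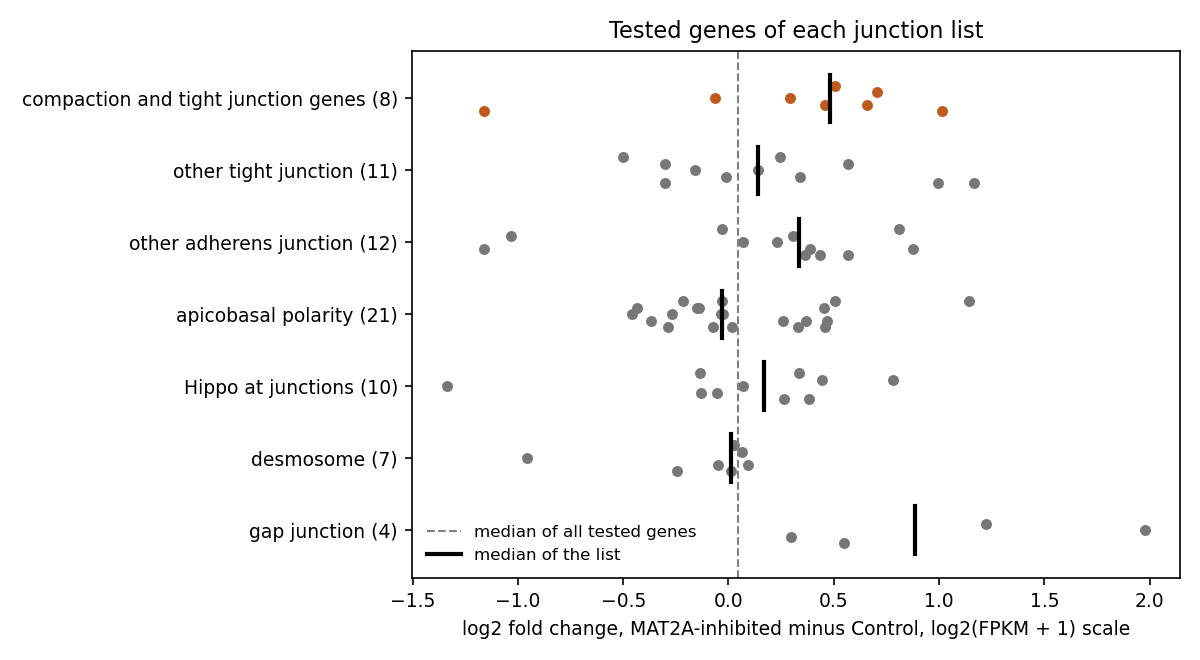
Log2 fold change (x axis, MAT2A-inhibited minus Control) of every tested gene of each list (points, number tested in brackets), with the list's median as a black bar and the median of all tested genes, 0.04, as a dashed line. None of the points passed limma after adjustment.

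The 3 tested genes whose log2 levels followed the named CDH1 row most closely over the 6 libraries were TMEM135, CNOT1 and TGFBR1, with Pearson r of 0.996, 0.980 and 0.977. These correlations are over 6 libraries, and the 0 of MAT2A-inhibited 1 is their far point. TMEM135 was at 3.32, 7.34 and 8.26 FPKM in the MAT2A-inhibited embryos, against 6.10, 6.46 and 7.63 FPKM in the Controls.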

How the data were processed

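Single bovine morulae were sequenced, 3 per group. The submitters' processing notes name TopHat2 (2.0.14), Cufflinks (2.2.1) and the build bosTau8. Their settings and the annotation are not known from the sources used here. The authors deposited 1 FPKM table per library with bounds, which were not used as errors, since 23 of the 48 rows used lie outside their own. Locus identifiers differ between libraries, as separate assemblies give. Rows of 1 symbol were summed, 13185 symbols were kept, and no scaling was added. Starts are given counting from 1. Depth was read from the bounds of unnamed short loci (100 to 300 bases), of which 99.6% to 99.8% were whole numbers of fragments within 0.05. Counts per gene were not recovered, so errors are the spread between embryos.

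Limma 3.58.1 in R 4.3.3 was fitted to log2(FPKM + 1) of 7319 symbols with a mean-variance trend and no block, two-sided, with Benjamini-Hochberg adjustment over all of them and a threshold of 0.05. The fit was tested on simulated data. Exact two-sided permutation tests were run on the 8 genes, on claudin shares and on values said to be chosen later. Members and lists were chosen with earlier results of these data known, and partners were named by role. Alternatives were 3 scalings (quantile, TPM and median-of-ratios), array weights, no trend, a smaller pseudocount (0.1), no filter or a mean of 5 FPKM, a replicate block, 1 row per symbol, a lone 0 as missing, libraries left out, and, added after the data were seen, the highest row over a locus. Equal values above 0 made up 0% of genes, after rounding, in any pair of libraries, so none was counted as a duplicate. Some genes of the lists are counted but not reported here by name.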

Additional observations from a re-analysis of the deposited data

How the results depend on the processing

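Of the 8 genes, 0 passed under any of the 19 alternatives, and CTNNA1, F11R, OCLN, CLDN3, CLDN4 and CLDN6 kept a log2 fold change above 0 in every alternative that tested them; CLDN3 was not tested with a mean of at least 5 FPKM. CDH1 was at -6.32 without MAT2A-inhibited 2 and 3 (limma adjusted p = 0.253), where the 0 stands alone, ran from -2.75 to 1.42 with 1 library left out, and turned to 1.42 with its 0 as missing and without MAT2A-inhibited 1, and to 0.24 with the highest row over the locus; the 0 and the rows over its locus account for this by construction. CTNNB1 turned to 0.006 without MAT2A-inhibited 3, 0.09 without Control 1, 0.20 without Control 3 and 0.035 without MAT2A-inhibited 2 and 3, with -0.47 to 0.20 over single libraries left out; the cause was not tested. Leaving out 1 library gave differences in the CLDN6 share from -8.65 to 8.25 percentage points, with -0.562 without Control 3.

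Over all 7319 genes 3 were called. The count was 1 with no filter on low values, 1 with a mean of at least 5 FPKM, 5 with array weights, 0 without MAT2A-inhibited 2 and 3, and 1 to 8 with 1 library left out. The replicate block gave 1 call and none among the 8 genes. The labels do not say whether same-numbered embryos belong together. Their deviations correlated at 0.0456, 0.103 and 0.191, beside -0.212 to 0.102 for embryos with different numbers. Whether they share an origin was not tested. The number of embryos limits every test: 3 against 3 cannot give an exact p below 0.1. Of the 8 genes CLDN3 is the one near the filter of 1 FPKM.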

Other observations

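The ratio of the catenins within an embryo, CTNNB1 over CTNNA1, was 1.33, 1.29 and 1.12 in MAT2A-inhibited morulae 1 to 3 and 2.38, 1.34 and 1.82 in Control morulae 1 to 3. The means were 1.25 ± 0.110 and 1.85 ± 0.518 (SD, n = 3 each, exact permutation p = 0.1, the smallest possible), and Control 2 lay 0.01 above the highest MAT2A-inhibited embryo. This ratio needs no scaling between libraries. It was chosen after the values were seen.

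A few other junction genes were also picked out after their values were seen. GJB5, which encodes a connexin, was at 510.5, 163.1 and 97.7 FPKM in the MAT2A-inhibited embryos and at 53.6, 48.8 and 238.0 FPKM in the Controls, with a log2 fold change of 1.22 ± 0.76 (SE, limma adjusted p = 0.786). The GJB5 values overlapped between groups. LSR, a protein of tricellular contacts, was at 35.6, 29.5 and 49.1 FPKM in the MAT2A-inhibited embryos and 24.1, 22.4 and 28.3 FPKM in the Controls, without overlap (limma adjusted p = 0.75). TAOK1, a kinase upstream of Hippo signalling, was at 2.60, 2.29 and 1.82 FPKM in the MAT2A-inhibited embryos and 3.01, 12.5 and 8.89 FPKM in the Controls (limma adjusted p = 0.709).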
